A study of Mus musculus with 7 samples.

Results

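The enzymes and readers of DNA methylation were described as 10 genes, chosen by name. They were the TET dioxygenases Tet1, Tet2 and Tet3, the DNA methyltransferases Dnmt1, Dnmt3a and Dnmt3b, the maintenance factor Uhrf1, the glycosylase Tdg, and the methyl-CpG readers Mbd1 and Mbd2. All 10 were found among the 54309 genes of the table. RNA sequencing covered 7 samples of lumbar (L4-6) dorsal root ganglia, which house the cell bodies of sensory neurons outside the spinal cord, from male C57bl/6 mice aged 6 to 8 weeks. In every mouse the sciatic nerve had been injured, and the ganglia were collected 72 h later, with no uninjured group among the samples. The groups were ZT20 (4 samples) and ZT8 (3 samples), named by Zeitgeber time, the hours since lights on, at which injury and dissection took place. Before RNA extraction the ganglia were dissociated with enzymes and passed over an albumin gradient meant to enrich neurons.

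DNA methyltransferases place a methyl group on cytosines, mostly at CpG pairs. Dnmt3a and Dnmt3b write new marks, and Dnmt1, guided to replicated DNA by Uhrf1, copies existing ones. TET enzymes oxidise the methyl group, Tdg cuts out the most oxidised bases so that repair can put back plain cytosine, and MBD proteins bind methylated CpG pairs. In injured sensory neurons Tet3 is known from earlier work as a demethylase linked to axon regeneration, and Bmal1, the clock factor that binds E-box sequences together with Clock, has been linked to Tet3 there. Across this pathway, whether transcript levels differ with the time of day of injury is the question the comparison addresses.

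Promoters of 8 of the 10 genes were found in RefSeq (build GRCm38.p6), as 13 windows of 300 bases, from 250 before to 50 after each listed start; Mbd1 and Mbd2 were not matched. The windows were searched for the E-box CACGTG, which reads the same on both strands, and on both strands for the D-box TTATGTAA and the RORE core TAGGTCA, letters recognised by clock factors. No search overlapped another in letters. The E-box was in 2 of the 13 windows, against 7.15% of all 32851 promoters in the table. The D-box (0.938% of all promoters) and the RORE core (2.61%) were in 0 of the 13. The 2 windows with an E-box are shown because the compared groups differ in clock time, with the E-box in capitals. The Tet3 window follows for its place in the demethylation of injured neurons, with CG pairs in capitals.
Tdg, chr10:82629588-82629887, plus strand: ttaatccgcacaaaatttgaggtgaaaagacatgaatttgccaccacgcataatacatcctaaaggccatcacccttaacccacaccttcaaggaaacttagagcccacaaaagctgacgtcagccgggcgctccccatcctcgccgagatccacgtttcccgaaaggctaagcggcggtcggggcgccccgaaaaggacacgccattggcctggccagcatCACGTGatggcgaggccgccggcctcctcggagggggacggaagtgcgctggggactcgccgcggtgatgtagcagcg
Dnmt3a, chr12:3891494-3891793, plus strand: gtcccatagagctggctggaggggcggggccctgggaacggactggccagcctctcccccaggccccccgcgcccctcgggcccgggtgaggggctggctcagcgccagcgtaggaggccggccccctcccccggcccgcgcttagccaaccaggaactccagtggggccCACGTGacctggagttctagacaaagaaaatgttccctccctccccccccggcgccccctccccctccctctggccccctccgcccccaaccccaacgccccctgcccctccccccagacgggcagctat
Tet3, chr6:83441629-83441928, minus strand: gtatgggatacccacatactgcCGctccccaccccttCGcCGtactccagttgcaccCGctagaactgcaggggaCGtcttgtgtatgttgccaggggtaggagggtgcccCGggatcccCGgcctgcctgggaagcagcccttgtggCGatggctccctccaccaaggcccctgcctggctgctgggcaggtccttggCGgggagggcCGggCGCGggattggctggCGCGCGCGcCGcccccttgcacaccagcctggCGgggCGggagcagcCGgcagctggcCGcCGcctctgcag
The Tdg E-box began 28 bases before the listed start and the Dnmt3a E-box 80 bases before one of its 3 listed starts. The Tet3 window held 22 CG pairs, the Tdg window 26 and this Dnmt3a window 18, against a median of 7.0 over all promoters and 26.0 over the 13 windows. These matches describe the letters of the windows and were not tested for binding.

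Values are TPM, transcript abundances scaled by gene length and to the same total in every library, so levels can be set side by side between genes as well as between samples. Sequencing depth is unknown. The libraries differed in ways that bear on every value below. ZT8 replicate 2 had 18297 genes above 0 TPM, against 22541 to 25238 in the other samples, and 749 of the 14800 tested genes were listed at 0 there, against 104 to 186 elsewhere. It was the highest or lowest of the 7 samples for 7 of the 10 genes, and for 60.3% of all tested genes. ZT20 replicates 3 and 4, although labelled male, had the Y-linked genes Ddx3y, Eif2s3y and Uty listed at 0 and Xist at 2.214 and 2.305 TPM. ZT20 replicate 2 held both Y-linked transcripts and Xist (1.08 TPM). In ZT20 replicate 1 and the ZT8 samples Xist was at 0 to 0.0047 TPM, so sex-linked transcripts were uneven between the groups. All 12 sensory neuron markers were above 0 TPM in every sample, and 3 of them (Nefh, Elavl4 and Scn9a) were called higher at ZT20 and 0 lower, beside 12.8% and 3.61% of all tested genes. They summed to 18550 to 23620 TPM at ZT20 and 14240 to 21710 TPM at ZT8. The 8 satellite glia markers summed to 7585 to 9281 TPM at ZT20 and 12870 to 15610 TPM at ZT8, and 8 macrophage markers to 136.8 to 204.1 and 199.7 to 466.6 TPM. The 6 B and plasma cell markers summed to 173.9 to 383.5 TPM at ZT20 and 351.4 to 842.7 TPM at ZT8, with 1 (Mzb1) called lower at ZT20. In bulk RNA, fewer cells of a type and less RNA per cell cannot be told apart. Libraries were named by numbers at ZT20 and by letters at ZT8, and what that naming stands for cannot be told apart from the time of day.

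Differences are ZT20 minus ZT8 on the log2(TPM + 1) scale, where changes of genes near 0 TPM come out too small, and were tested with limma across the 14800 genes that averaged 1 TPM or more. Of the 10 genes 8 passed that filter, all but Uhrf1 (mean 0.986 TPM) and Dnmt3b (mean 0.158 TPM). None of the 8 passed a limma adjusted p-value of 0.05, 0 higher and 0 lower, and 0 of the 8 had an unadjusted p-value under 0.05. Over all tested genes 12.8% were called higher and 3.61% lower at ZT20, 16.4% in either direction, and 34.6% had an unadjusted p-value under 0.05. The groups of all 8 tested members overlapped, whereas over all tested genes 24.5% lay without overlap higher at ZT20 and 8.72% lower. The median log2 difference was 0.18 over the 8 genes, 5 of them positive and 3 negative, and 0.23 over all tested genes. It was 0.019 over all tested genes after median-ratio scaling, so the sign of a small difference depends on the scaling between samples. Of all calls 78.1% were higher at ZT20, against 46.5% with median-ratio scaling and 55.7% with quantile normalization. All 8 intervals were wide, and a missed threshold does not show equal levels. Over the 19 alternatives the lowest adjusted p-values were 0.0651 for Tet3, 0.0815 for Mbd2 and 0.0908 for Dnmt3a, and 0.0954 for Tdg and 0.0985 for Mbd1.

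**Figure D1:**
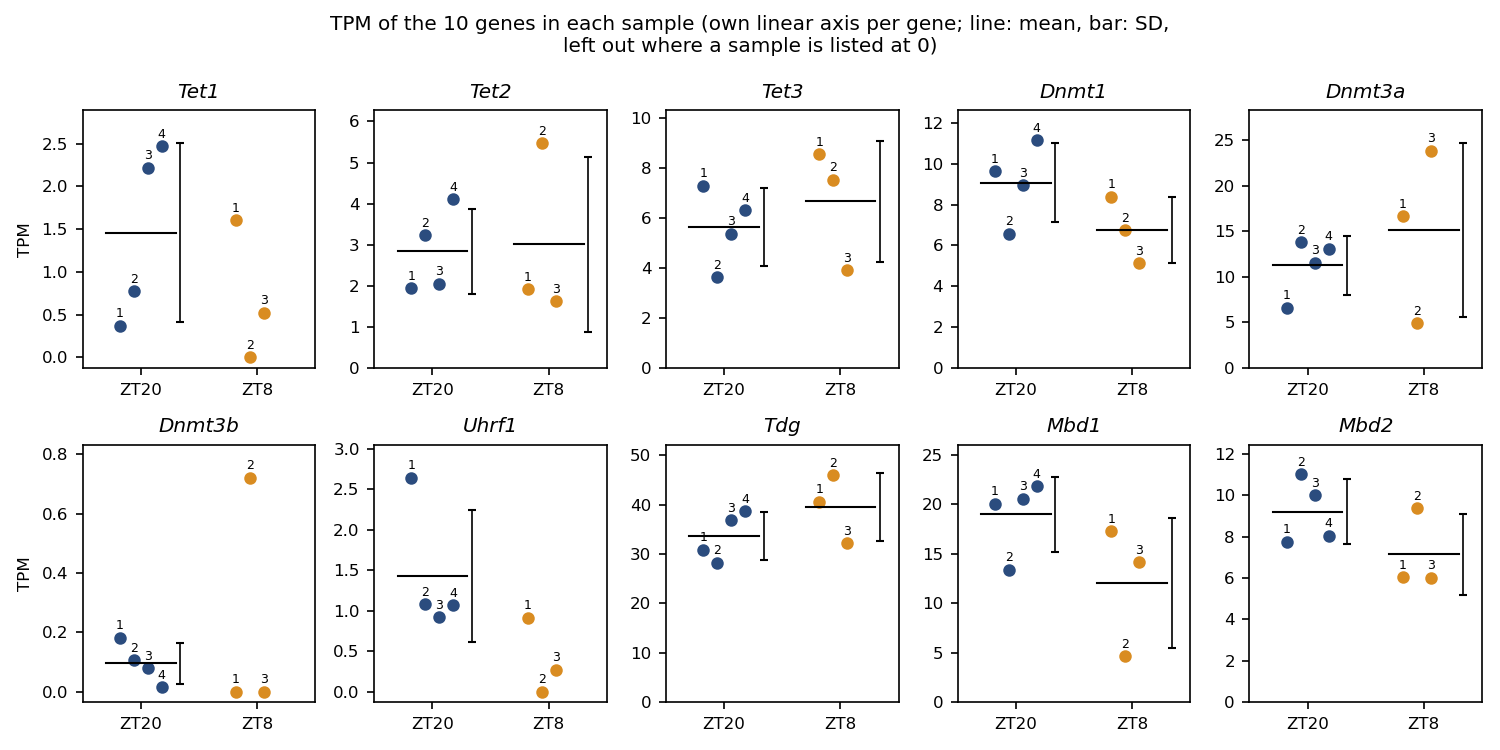
Each panel plots TPM (linear axis of its own) of 1 gene in the 4 ZT20 and 3 ZT8 samples, with points labelled by replicate number; lines are group means and bars SD, left out where a sample is listed at 0. The groups overlap in every gene except Uhrf1, where the lowest ZT20 value (0.924) and the highest ZT8 value (0.915) nearly touch.

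Among the TET dioxygenases Tet3 had the highest level in all 7 samples. Tet3 (ENSMUSG00000034832) measured 7.29, 3.63, 5.37 and 6.32 TPM at ZT20 and 8.54, 7.53 and 3.92 TPM at ZT8, in the order of replicate number here and below. The lowest sample of each group lay near the other group's lowest, and the ranges overlapped almost fully. The means were 5.65 ± 1.56 (SD, n = 4) at ZT20 against 6.66 ± 2.43 TPM (SD, n = 3) at ZT8, and the log2 difference was −0.18 with a 95% confidence interval of −0.87 to 0.51 (limma adjusted p = 0.702). The sign was positive without ZT8 replicate 1 (0.0064).

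Tet2, which lacks the CXXC DNA-binding domain of the other TET proteins and is best known from blood cells, was present at lower levels. Tet2 (ENSMUSG00000040943) was at 1.94, 3.24, 2.06 and 4.12 TPM at ZT20 and at 1.93, 5.47 and 1.63 TPM at ZT8. The ZT8 group held both the highest and the lowest Tet2 values of the 7 samples, the highest in the library with fewest detected genes. The log2 difference was 0.023 with an interval of −0.83 to 0.87 (limma adjusted p = 0.971), and it was negative without ZT20 replicate 2 (−0.038) or 4 (−0.13) or ZT8 replicate 1 (−0.14) or 3 (−0.22).

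Tet1, the founding member of the family, was close to the filter. Tet1 (ENSMUSG00000047146) had 0.371, 0.775, 2.22 and 2.47 TPM at ZT20. At ZT8 it was at 1.61 TPM in replicate 1, listed at 0 in replicate 2 and at 0.522 TPM in replicate 3. Within ZT20 the higher Tet1 values were in replicates 3 and 4, the libraries whose Y-linked transcripts were at or near 0. The log2 difference of Tet1 was 0.53 with an interval of −0.51 to 1.57 (limma adjusted p = 0.435), and −0.021 without ZT20 replicates 3 and 4 (limma adjusted p = 0.988). With 0.1 added to TPM in place of 1, the Tet1 difference was 1.40 (limma adjusted p = 0.392).

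The 3 TET genes together summed to 7.65 to 12.9 TPM at ZT20 and 6.07 to 13.0 TPM at ZT8. Tet3 made up 47.5% to 75.9% of the TET sum at ZT20 (median 52.3%) and 57.9% to 70.7% at ZT8 (median 64.6%). Tet2 made up 20.2% to 42.4% and 16.0% to 42.1%, and Tet1 3.86% to 23.0% and 0% to 13.3%. For each of the 3 genes the ranges of the shares overlapped between the groups.

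**Figure D2:**
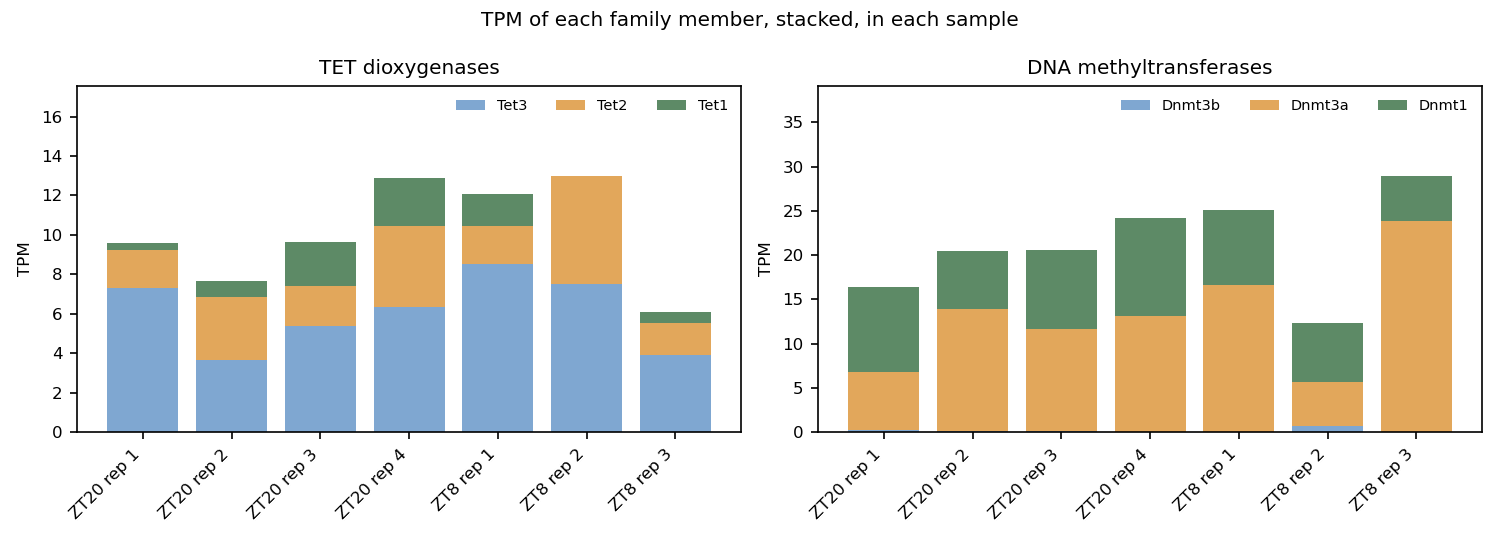
Stacked bars give TPM of Tet1, Tet2 and Tet3 (left) and of Dnmt1, Dnmt3a and Dnmt3b (right) in each of the 7 samples. Tet3 is the largest part of the TET bar in every sample, while the share of Dnmt3a in the methyltransferase bar runs from 39.6% to 82.3% within ZT8.

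The tested genes whose pattern over the 7 samples lay closest to each TET gene were found from the root mean square distance of log2(TPM + 1) values centred on each gene's mean, as a description with no test. Closest to Tet3 were Cmtr2, a cap methyltransferase (0.13 log2 units), Tsc22d4 (0.15) and 2310009B15Rik (0.16), against a spread of 0.37 of Tet3 itself around its mean. Closest to Tet2 were Thsd1 (0.14), 2810021J22Rik (0.15) and Klhl24 (0.15), against a spread of 0.46. Closest to Tet1 were the kinase gene Mink1 and the Wnt receptor gene Fzd1 (both 0.20) and 1700112J16Rik (0.21), against a spread of 0.62. Mink1 was picked for its closeness to Tet1, so a like split within ZT20 follows from that choice. By replicate number its ZT20 values were 30.2, 36.3, 61.6 and 59.1 TPM. Its lowest ZT8 value, 18.02 TPM, was in replicate 2, the lowest of the 7 samples for 5948 of the 14800 tested genes.

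Of the methyltransferases, Dnmt3a had the higher mean over the 7 samples (12.9 TPM), Dnmt1 a lower one (8.08 TPM), and Dnmt3b was near 0 (0.158 TPM). Dnmt1 (ENSMUSG00000004099) was at 9.63, 6.57, 8.94 and 11.2 TPM at ZT20 and at 8.38, 6.74 and 5.14 TPM at ZT8. Of the ZT20 samples 3 lay above all ZT8 samples, and replicate 2 lay among them. The means were 9.08 ± 1.91 (SD, n = 4) at ZT20 against 6.75 ± 1.62 TPM (SD, n = 3) at ZT8, which differ on the log2 scale by 0.38 with an interval of −0.16 to 0.92 (limma adjusted p = 0.285).

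Dnmt3a, the main new-mark methyltransferase of neurons, had the widest spread among the ZT8 samples of the genes above 10 TPM. Dnmt3a (ENSMUSG00000020661) was at 6.61, 13.8, 11.5 and 13.1 TPM at ZT20 and at 16.7, 4.89 and 23.8 TPM at ZT8. The ZT8 values enclosed the whole ZT20 range. The log2 difference was −0.21 with an interval of −1.28 to 0.86 (limma adjusted p = 0.778). It was −0.82 without ZT8 replicate 2, 0.22 without ZT8 replicate 3 and 0.0052 without ZT20 replicate 1. Dnmt3a made up 40.3% to 67.4% of the methyltransferase sum at ZT20 and 39.6% to 82.3% at ZT8, where replicate 2 had the lowest share.

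Dnmt3b, active mainly in embryonic cells, was at 0.182, 0.107, 0.0801 and 0.0155 TPM at ZT20. At ZT8 it was at 0.721 TPM in replicate 2 and listed at 0 in replicates 1 and 3. ZT8 replicate 2 alone stood above the rest, and no fold is given. Dnmt3b was tested only without the filter on low values, with a log2 difference of −0.13 and an interval of −0.58 to 0.32 (limma adjusted p = 0.706), and 0.13 without ZT8 replicate 2. Without the filter 3.07% of 31897 genes were called higher, 0.627% lower and 3.69% in either direction.

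Uhrf1, which recruits Dnmt1 to half-methylated DNA behind the replication fork, was the member whose groups did not overlap. Uhrf1 (ENSMUSG00000001228) was at 2.64, 1.08, 0.924 and 1.07 TPM at ZT20 and at 0.915, 0 and 0.272 TPM at ZT8. The gap between the groups was the 0.924 TPM of ZT20 replicate 3 against the 0.915 TPM of ZT8 replicate 1. Among genes above 0 TPM in at least 1 sample, 15.5% lay without overlap higher at ZT20. Without the filter the log2 difference of Uhrf1 was 0.80 with an interval of 0.019 to 1.58, an unadjusted p-value of 0.0459 and a limma adjusted p = 0.237. Without the filter 20.2% of 31897 genes had an unadjusted p-value under 0.05. With 0.1 added to TPM in place of 1, the Uhrf1 difference was 2.06. The highest Uhrf1 value fell in the sample with the highest sum of 11 proliferation markers, 120.6 TPM in ZT20 replicate 1. That sum was 51.4, 45.6 and 62.3 TPM in ZT20 replicates 2 to 4 and 54.1, 73.1 and 46.4 TPM in the ZT8 replicates. How far dividing cells bear on the Uhrf1 values was not tested. With ZT20 replicate 1 left out, Uhrf1 differed by 0.59 (limma adjusted p = 0.348).

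Tdg was the most abundant of the 10 genes in all 7 samples. Tdg (ENSMUSG00000034674) was at 30.9, 28.2, 36.8 and 38.7 TPM at ZT20 and at 40.6, 45.9 and 32.2 TPM at ZT8. Of the ZT8 samples replicates 1 and 2 lay above the whole ZT20 range, and replicate 3 within it. The means were 33.7 ± 4.92 (SD, n = 4) at ZT20 against 39.6 ± 6.89 TPM (SD, n = 3) at ZT8, which differ on the log2 scale by −0.22 with an interval of −0.62 to 0.17 (limma adjusted p = 0.388). Of the 10 genes it had the lowest coefficient of variation at ZT20, 0.146. The pseudogenes Tdg-ps and Tdg-ps2 reached at most 0.0805 and 0.126 TPM, and in GENCODE M21 Tdg overlaps Glt8d2 on the opposite strand, so the assignment of reads between them is uncertain. The same holds for Dnmt3a, Dnmt3b, Tet2 and Tet3, each of which overlaps a gene on the opposite strand, and for Tet1, Tet3 and Dnmt1, which overlap other annotated genes on their own strand. The antisense genes Dnmt3aos and Dnmt3bos reached at most 0.175 and 0.0571 TPM.

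The readers Mbd1 and Mbd2 both had higher means at ZT20, within overlapping ranges. Mbd1 (ENSMUSG00000024561), which binds methylated and through a CXXC domain also unmethylated CpG pairs, was at 20.04, 13.4, 20.6 and 21.8 TPM at ZT20 and at 17.2, 4.67 and 14.1 TPM at ZT8. Of the ZT20 samples 3 lay above all ZT8 samples, and ZT8 replicate 2 stood far below the rest. The log2 difference of Mbd1 was 0.76 with an interval of −0.12 to 1.64 (limma adjusted p = 0.199), and 0.24 without ZT8 replicate 2. Mbd2 (ENSMUSG00000024513), the reader that recruits the NuRD remodelling complex, was at 7.75, 11.0, 9.99 and 8.04 TPM at ZT20. It was at 6.02, 9.37 and 6.02 TPM at ZT8, so ZT8 replicates 1 and 3 lay below every ZT20 sample and replicate 2 within them. The log2 difference of Mbd2 was 0.34 with an interval of −0.17 to 0.85 (limma adjusted p = 0.311).

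Ordered by mean TPM over the 7 samples, the 10 genes ran from Tdg (36.2) through Mbd1 (16.0), Dnmt3a (12.9), Mbd2 (8.32), Dnmt1 (8.08), Tet3 (6.09), Tet2 (2.91), Tet1 (1.14) and Uhrf1 (0.986) to Dnmt3b (0.158). Tdg and Mbd1 were the only neighbours in that order whose ranges over the 7 samples did not overlap. Tet3 was above Tet2 in 7 of 7 samples although their ranges overlapped. Dnmt1 was above Tet3 in 5 of 7 and Mbd2 above Dnmt1 in 4 of 7, and Mbd1 above Dnmt3a in 4 of 7, so these neighbours did not differ beyond their spread. Dnmt3a was above Mbd2 in 5 of 7, Tet2 above Tet1 in 6 of 7, Tet1 above Uhrf1 in 4 of 7 and Uhrf1 above Dnmt3b in 6 of 7, also with overlapping ranges.

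The differences of the members shifted when values were corrected for transcript length and GC content. The longest annotated transcripts were 14369 nt for Tet1, 10904 nt for Tet3, 9685 nt for Dnmt3a, 9179 nt for Tet2 and 5870 nt for Dnmt1. Once the trend of values with length and GC content was removed within each library, the 8 tested members moved down, as did 79.0% of all 14745 genes in that fit. The median move was −0.65 over the 8 members and −0.23 over all genes, whose median difference went from 0.23 to −0.0083. After the correction 6 members were negative, beside 50.8% of all genes, and Mbd1 and Mbd2 were positive. The corrected log2 difference was −0.98 for Tet3, with an interval of −1.63 to −0.34, an unadjusted p-value of 0.00743 and a limma adjusted p = 0.0651. Dnmt3a was also at −0.98, with a wider interval of −1.999 to 0.044 (limma adjusted p = 0.202). Tet2 was at −0.66 (limma adjusted p = 0.271) and Tdg at −0.49 (limma adjusted p = 0.122), and Tet1 and Dnmt1 were at −0.21 and −0.23. Tet1, Tet2 and Dnmt1 had been positive before the correction. Relative to genes of like length and GC content, then, 2 of the 8 members (Tet3 and Tdg) had an unadjusted p-value under 0.05 and 0 passed the adjusted threshold, against 27.1% and 8.84% of the 14745 genes in that fit, 3.58% higher and 5.26% lower. The correction also takes out each sample's mean shift, and over all genes it turned the share of calls that were higher at ZT20 from 78.1% to 40.5%.

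**Figure D3:**
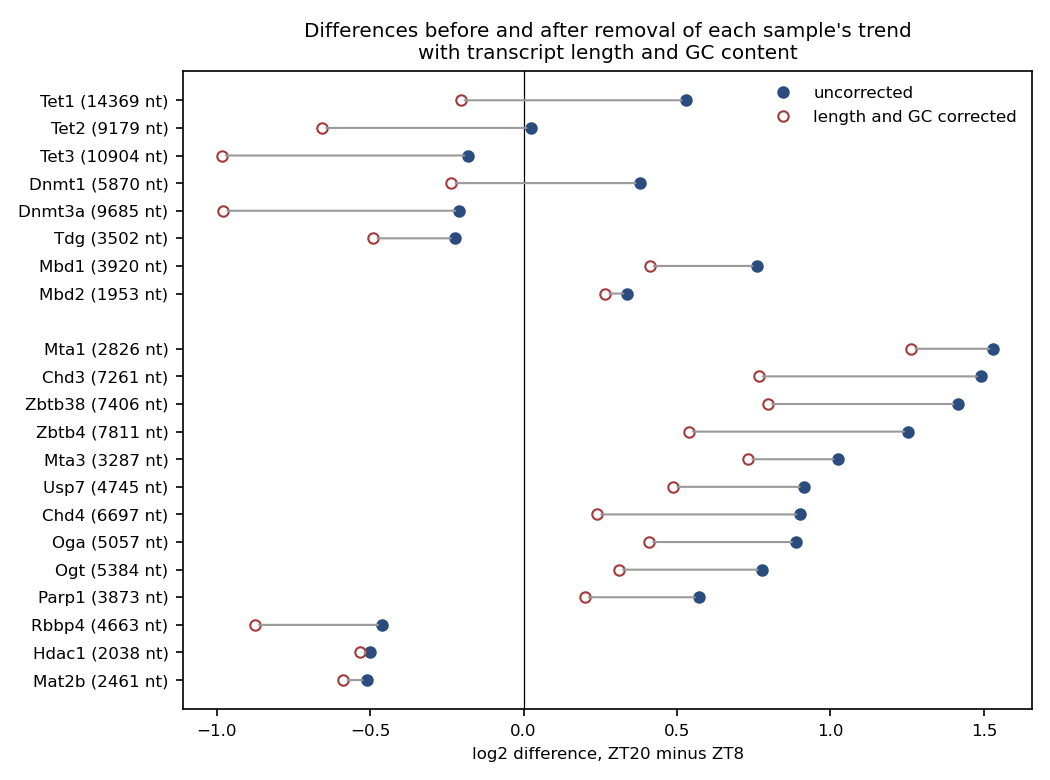
The log2 difference (ZT20 minus ZT8) of each tested member and each called pathway gene is shown before (filled) and after (open) removal of the trend with transcript length and GC content within each library; numbers are longest transcripts in nt. All 8 members move to the left, as 79.0% of all genes do, Tet3 from −0.18 to −0.98.

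The other genes of the pathway, were 51 on 7 lists by role. Of 48 tested, 10 passed the limma adjusted threshold higher at ZT20 and 3 lower, beside 12.8% and 3.61% of all tested genes, with a median log2 difference of 0.30 beside 0.23. After the length and GC correction 3 were higher and 3 lower, beside 3.58% and 5.26% of all genes, and 5 of the 13 first called were called again. Without ZT20 replicates 3 and 4, 0 of the 48 and 0 of all 14800 genes passed, while 2425 genes had an unadjusted p-value under 0.05. With those 2 libraries left out the differences of the 13 called genes kept their direction and were 0.865 to 1.13 times as large as before, such as 1.46 for Chd3 and −0.56 for Mat2b. Higher and lower calls among the 48 numbered 7 and 0 without ZT20 replicate 1, 5 and 0 without ZT20 replicate 3 and 5 and 1 without ZT20 replicate 4. Over all 14800 genes these fits gave 946 and 179, 543 and 81, and 691 and 128, against 1899 and 534 with all samples. Leaving out ZT20 replicate 2 or any ZT8 replicate gave 8 to 10 higher and 1 lower among the 48. Over all genes those fits gave 1303 to 2374 higher and 366 to 681 lower. With a score of neuronal against other cell markers as a covariate, 0 of the 48 and 0 of all genes passed, and 2280 genes had an unadjusted p-value under 0.05. That score was 4.92 to 5.40 at ZT20 and 4.31 to 4.94 at ZT8, so it nearly follows the groups. Under it the 13 differences kept their direction and were 0.486 to 1.55 times as large as before (median 0.942), such as 1.33 for Chd3, 0.96 for Oga, 2.03 for Zbtb38 and −0.22 for Rbbp4. When 1 of the 7 samples was left out at a time, Chd3, Chd4, Oga, Zbtb4 and Zbtb38 passed each time. Hdac1 missed the threshold in 7 of 7 such fits (limma adjusted p = 0.0536 to 0.117), Rbbp4 in 6 (all but that without ZT8 replicate 3) and Ogt in 6 (all but that without ZT8 replicate 2). Parp1 missed it in 5 (without ZT20 replicates 1, 3 or 4 or ZT8 replicates 2 or 3), Mta1 in 4 (without any ZT20 replicate) and Mat2b in 3 (without ZT20 replicates 1 or 3 or ZT8 replicate 3). Mta3 and Usp7 missed it in 2 (without ZT20 replicates 3 or 4).

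Among 4 partners of the TET enzymes, 2 were called higher at ZT20 and 0 lower, beside 12.8% and 3.61% of all genes, and 0 were called after the length and GC correction. Oga, which removes the O-GlcNAc sugar from proteins, was at 24.6, 27.9, 27.2 and 27.3 TPM at ZT20 and at 13.4, 14.7 and 13.8 TPM at ZT8. Samples of each group were tightly spaced, with a wide gap between the groups. The log2 difference of Oga was 0.89 with an interval of 0.58 to 1.198 (limma adjusted p = 0.00701), and 0.41 after the length and GC correction (limma adjusted p = 0.102). Ogt, which adds that sugar and binds TET proteins, was at 42.0, 46.2, 48.5 and 52.2 TPM and at 25.8, 36.9 and 20.9 TPM, a log2 difference of 0.78 (limma adjusted p = 0.0312). The corrected difference of Ogt was 0.31 (limma adjusted p = 0.320), and Ogt also missed the threshold with median-ratio scaling (limma adjusted p = 0.118) and quantile normalization (limma adjusted p = 0.0905). Under the same scalings Usp7 missed it too (limma adjusted p = 0.0543 and 0.0868), as did Parp1 with the former (limma adjusted p = 0.113) and Mta1 with the latter (limma adjusted p = 0.0514). Mta1 also missed it with 0.1 added to TPM in place of 1 (limma adjusted p = 0.0638). Cxxc4, which binds Tet2 and lowers its protein level, was at 5.81, 3.25, 5.62 and 4.32 TPM at ZT20 against 2.43, 1.44 and 3.10 TPM at ZT8, without overlap, and did not pass (limma adjusted p = 0.0810).

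Subunits of NuRD, the deacetylase and remodelling complex that Mbd2 and Mbd3 bring to chromatin, had calls in both directions. Of 11 tested, 4 were called higher and 2 lower at ZT20, beside 12.8% and 3.61% of all genes. After the length and GC correction 3 were called higher and 1 lower, beside 3.58% and 5.26%. Chd3, a remodelling ATPase, was at 34.2, 25.7, 30.5 and 31.9 TPM at ZT20 and at 11.1, 8.75 and 10.8 TPM at ZT8. The lowest ZT20 sample was well above the highest ZT8 sample, and the log2 difference was 1.49 with an interval of 1.12 to 1.87 (limma adjusted p = 0.00274). The corrected difference of Chd3 was 0.77 (limma adjusted p = 0.0174). The paralogous ATPase Chd4 differed by 0.90 (limma adjusted p = 0.00942) and by 0.24 after correction (limma adjusted p = 0.273). Mta1 and Mta3, scaffold subunits, differed by 1.53 and 1.02 (limma adjusted p = 0.0321 and 0.0137), and by 1.26 and 0.73 after correction (limma adjusted p = 0.0403 and 0.0239). Mta1 was at 0.251 TPM in ZT8 replicate 2 and at 2.36 and 2.91 TPM in the other ZT8 samples, and its uncorrected difference was 1.02 without that replicate. The related Mta2 was at 21.8 TPM in both groups, a log2 difference of 0.0070 with an interval of −0.31 to 0.33. The deacetylase Hdac1 fell, at 34.7, 27.8, 29.5 and 28.3 TPM at ZT20 against 40.1, 47.0 and 41.7 TPM at ZT8, a log2 difference of −0.50 (limma adjusted p = 0.0414), and −0.53 after correction (limma adjusted p = 0.0584). The histone chaperone Rbbp4 differed by −0.46 (limma adjusted p = 0.0421) and by −0.87 after correction (limma adjusted p = 0.00994). Of the 8 satellite glia markers 3 were called lower at ZT20, beside 3.61% of all genes, and of the 12 sensory neuron markers 3 higher, beside 12.8%, and their part in the differences was not tested. With the marker score as a covariate Chd3 differed by 1.33, Chd4 by 0.70, Mta1 by 0.88, Mta3 by 0.74, Hdac1 by −0.60 and Rbbp4 by −0.22. None of these passed in that fit (limma adjusted p = 0.102, 0.243, 0.539, 0.321, 0.290 and 0.636).

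**Figure D4:**
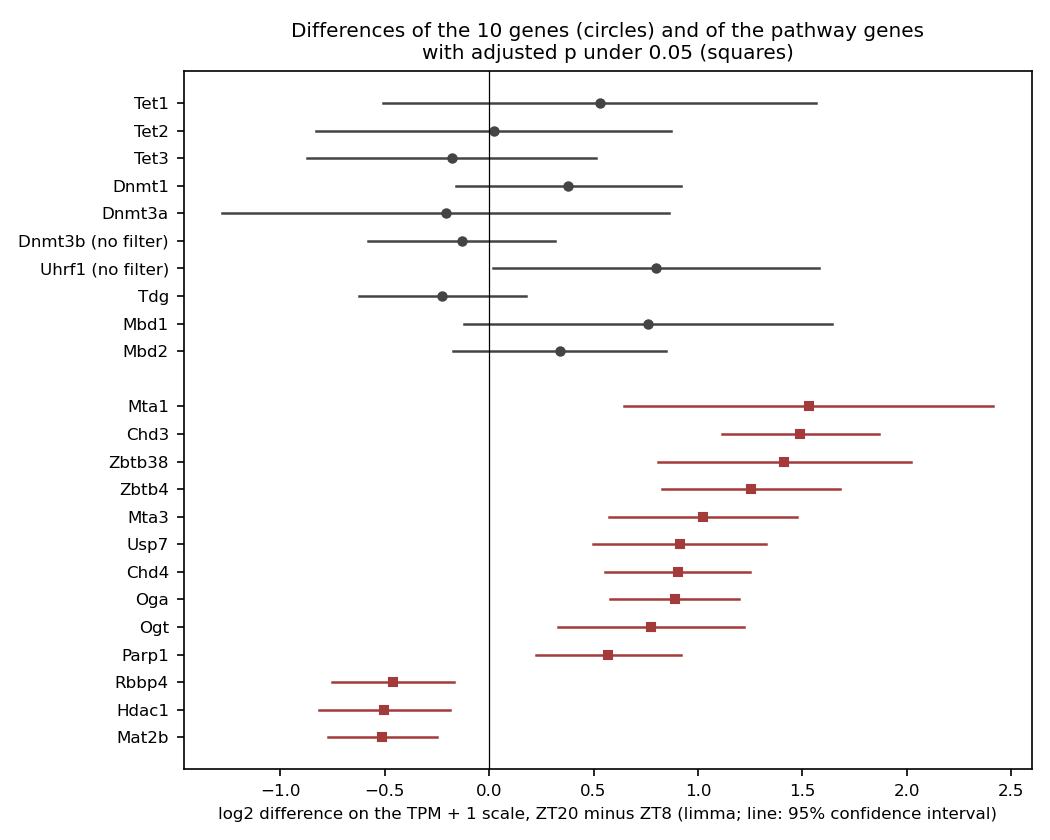
Log2 differences (ZT20 minus ZT8, log2(TPM + 1) scale) with 95% confidence intervals from limma are drawn for the 10 members (circles) and for the 13 pathway genes with an adjusted p-value under 0.05 (squares). All member intervals include 0 except that of Uhrf1, fitted without the filter, whose lower bound is 0.019.

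Other methyl-CpG binding proteins were tested for 6 of 7 genes, and 2 were called higher and 0 lower, beside 12.8% and 3.61% of all genes. After the length and GC correction 0 were called, beside 3.58% higher and 5.26% lower of all genes. The median difference of the list went from 0.58 to −0.032, and that of all genes from 0.23 to −0.0083. The zinc finger readers Zbtb4 and Zbtb38 differed by 1.25 and 1.41 (limma adjusted p = 0.00673 and 0.0126), at 16.3 against 6.36 TPM and 82.4 against 30.9 TPM on average. After the length and GC correction they differed by 0.54 and 0.80 (limma adjusted p = 0.0902 and 0.101). Mbd3, the NuRD subunit that is related to Mbd2, was at 21.9 ± 1.96 (SD, n = 4) at ZT20 against 29.6 ± 6.51 TPM (SD, n = 3) at ZT8, which differ on the log2 scale by −0.40 (limma adjusted p = 0.155).

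Of 6 maintenance genes 1 was called higher, near the 12.8% of all genes. It was the deubiquitinase Usp7, which stabilises Dnmt1 and Uhrf1. Usp7 was at 16.9, 17.96, 15.4 and 17.1 TPM at ZT20 and at 7.28, 10.8 and 7.64 TPM at ZT8, a log2 difference of 0.91 (limma adjusted p = 0.0153), and 0.49 after correction (limma adjusted p = 0.162). Uhrf2, the paralog of Uhrf1, was at 7.60, 9.37, 7.64 and 7.31 TPM and at 7.83, 1.14 and 5.599 TPM, a log2 difference of 0.84 (limma adjusted p = 0.208) that was 0.23 without ZT8 replicate 2. Of 9 base excision repair genes tested, 1 was called higher, also near that share, Parp1 (log2 difference 0.57, limma adjusted p = 0.0378, and 0.20 with adjusted p = 0.259 after correction). Mbd4, a glycosylase with a methyl-CpG binding domain, differed by 0.56 (limma adjusted p = 0.365), and by −0.026 without ZT8 replicate 2, the sample at 1.31 TPM against 6.06 to 7.40 TPM in the other 6.

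The Gadd45 genes, stress-induced factors linked to demethylation and induced in injured sensory neurons, were measured for all 3 family members. Of the 3, 0 passed the limma threshold and 0 an unadjusted p-value of 0.05, beside 16.4% and 34.6% of all genes. Gadd45a was at 219.9 ± 70.6 (SD, n = 4) at ZT20 against 274.6 ± 24.0 TPM (SD, n = 3) at ZT8, with ZT20 replicate 1 at 121.2 TPM and the other samples at 219 to 288.7 TPM. Gadd45g was at 311.8 ± 49.2 (SD, n = 4) at ZT20 against 350.8 ± 58.0 TPM (SD, n = 3) at ZT8, and Gadd45b at 8.53 ± 0.895 (SD, n = 4) at ZT20 against 6.56 ± 1.69 TPM (SD, n = 3) at ZT8. Their log2 differences were −0.38, −0.17 and 0.35 (limma adjusted p = 0.332, 0.482 and 0.266).

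Of 9 tested genes that supply the methyl donor and the oxoglutarate used by TET enzymes, 1 was called lower at ZT20 and 0 higher, beside 3.61% and 12.8% of all genes. Mat2b, the regulatory subunit of the enzyme that makes S-adenosylmethionine, was at 127.5, 142.0, 137.1 and 153.1 TPM at ZT20 and at 180.8, 208.6 and 210.2 TPM at ZT8. Every ZT20 sample was below every ZT8 sample, and the log2 difference was −0.51 with an interval of −0.77 to −0.25 (limma adjusted p = 0.0219). The catalytic subunit gene Mat2a was at 76.9 ± 7.38 (SD, n = 4) at ZT20 against 99.2 ± 10.6 TPM (SD, n = 3) at ZT8 and did not pass (limma adjusted p = 0.0857). After the length and GC correction 2 of the 9 were called lower and 0 higher, beside 5.26% and 3.58% of all genes. They were Mat2b, at −0.59 (limma adjusted p = 0.0252), and Mat2a, at −0.56 (limma adjusted p = 0.0292).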

How the data were processed

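The authors deposited 1 table of TPM values for 54309 genes, with a column for each of the 7 samples, all columns scaled to the same total. Per the submitters' processing notes, FastQC 0.11.9, Trim Galore 0.6.6, Salmon 1.6.0, DESeq2 1.34.0 and build GRCm39 were used, with no role given. Columns were mapped to samples by title, and 0 value columns were left unused. Values were analysed as log2(TPM + 1) with limma 3.58.1 (lmFit, eBayes with trend; R 4.3.3), two-sided, over all 7 samples without covariates, with Benjamini-Hochberg adjustment over the 14800 genes averaging 1 TPM or more. Replicates are separate samples by label, and whether each is 1 animal or a pool is not given in the sources used here, so p-values measure the spread between these samples. Tested on simulated data with 200 of 14800 genes changed by 1.5 on the log2 scale, the fit recovered 58.0% of them. Of its calls 3.33% fell on genes left as they were, and with none changed there were 0 calls. Recovery of smaller changes was not tested. The largest member difference on the log2(TPM + 1) scale with all samples was 0.80, that of Uhrf1 fitted without the filter.

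Members, lists and tests were chosen with earlier results of these data known. All 10 members are named whatever their result, and of the pathway lists the called genes and 7 fixed genes, another result being not reported here; a few other pathway genes were named after their values were seen, Cxxc4, Mta2, Mat2a and, in the closing section, Neil3. For each TET gene the 3 closest genes are given. Longest transcript and GC content came from GENCODE M21 (build GRCm38), matched by gene ID and known for 14745 tested genes, and the correction used a loess with span 0.3. Promoter windows are RefSeq's, read by gene symbol. The replicate number was not used as a covariate. The 19 alternatives were adding 0.1 instead of 1, testing unfiltered genes or those averaging 5 TPM, scaling by median ratios or quantiles, the length and GC correction, a replicate block, that block with the correction, a covariate for neuronal against other markers, array weights, leaving out each sample, and leaving out the libraries whose sex-linked transcripts went against the label.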

Additional observations from a re-analysis of the deposited data

Results flagged for a closer look

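Among 29 genes checked in the ZT20 group, 2 had 1 sample whose gap to its nearest neighbour took more than 0.829 of the range, the 95% critical share for 4 samples, and chance gives about 1 in 20. In Uhrf1 the sample was ZT20 replicate 1 with 2.64 TPM, while the other 3 had 0.924 to 1.08 TPM, and the gap share was 0.910. In Uhrf2 it was ZT20 replicate 2 with 9.37 TPM, while the rest had 7.31 to 7.64 TPM, and the gap share was 0.842.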

How the results depend on the processing

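Of the members tested, 8 in most alternatives, 6 among genes averaging 5 TPM and 10 without the filter, 0 were called in each of the 19 alternatives and 0 to 2 had an unadjusted p-value under 0.05. Uhrf1 and Dnmt3b, refitted without the filter in 17 alternatives, had lowest adjusted p-values of 0.16 and 0.306. Depth is unknown, so the counting error behind low values such as those of Tet1, Uhrf1 and Dnmt3b cannot be given. The cause of each change below was not tested, beyond the fewer samples or added terms of the fit itself. Over all genes, the numbers higher and lower at ZT20 were 978 and 200 without the filter, 1088 and 1254 with median-ratio scaling, 1023 and 814 with quantile normalization, 2982 and 917 with array weights, and 528 higher after the length and GC correction (776 lower). Both numbers were 0 with the marker score as covariate and without ZT20 replicates 3 and 4, where 2280 and 2425 genes had an unadjusted p-value under 0.05 by limma, the only tool run. Leaving out ZT20 replicates 2, 3 and 4 kept only replicate 1 in that group. The spread then came from ZT8 alone, and no count over all genes is given. With the replicate number as a block 891 genes were higher and 283 lower, and with the block and the length and GC correction 231 and 289. Deviations of same-numbered samples from their group means correlated across genes at −0.014, 0.15 and 0.083 for numbers 1 to 3. ZT20 replicate 2 and ZT8 replicates 2 and 3 correlated best with their own number, and ZT20 replicates 1 and 3 and ZT8 replicate 1 did not. So few and small correlations cannot settle whether same-numbered samples share more than a number. ZT20 replicate 4 has no partner and carries no weight in the block fit. Leaving out 1 sample at a time gave 543 to 2374 higher and 81 to 681 lower; the lowest counts were without ZT20 replicate 3 and the highest without ZT8 replicate 2.

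Calls of pathway genes are to be read beside the counts over all genes above. Pathway genes were called 3 higher and 3 lower after the length and GC correction, 6 and 1 with the block and 1 and 1 with block and correction. They were called 7 higher and 5 lower with median-ratio scaling and 7 and 1 without the filter. With the marker score and without ZT20 replicates 3 and 4, pathway genes were called 0 and 0. Leaving out 1 sample at a time gave 5 to 10 higher and 0 to 1 lower. Without ZT20 replicate 3, 5 were higher. Of 544 single-gene values under alternatives, 403 kept direction and side of the threshold, 111 kept direction but lost the call, and 30 turned sign, all of genes that had not passed.

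Tet1 turned to −0.21 after the length and GC correction, −0.37 with block and correction, −0.021 without ZT20 replicates 3 and 4 and −0.21 without ZT20 replicates 2, 3 and 4. The last of these fits held ZT20 replicate 1 alone in its group. Under those 4 settings Tet2 was at −0.66, −0.77, −0.058 and −0.32, and it was at −0.16 with median-ratio scaling, −0.26 with quantile normalization and −0.13 with the block. Leaving out 1 sample moved Tet2 from −0.22 to 0.43, Tet3 from −0.47 to 0.0064, Dnmt3a from −0.82 to 0.22, Dnmt3b from −0.26 to 0.13 and Mbd4 from −0.026 to 0.86. With direction kept, it moved Tet1 from 0.20 to 0.89, Dnmt1 from 0.22 to 0.53, Tdg from −0.36 to −0.11, Mbd1 from 0.24 to 1.09, Mbd2 from 0.24 to 0.53, Uhrf1 from 0.59 to 1.06, Uhrf2 from 0.23 to 1.25, Mbd3 from −0.57 to −0.25, and Gadd45a, Gadd45b and Gadd45g from −0.52 to −0.12, 0.20 to 0.52 and −0.31 to −0.073. With the marker score Tet3 was at 0.19, Tdg at 0.069, Dnmt3b at 0.019, Gadd45a at 0.047 and Gadd45g at 0.20. Tet3 was at 0.17 without ZT20 replicates 2, 3 and 4, again with ZT20 replicate 1 alone, and Dnmt3b at 0.037 with array weights. After the length and GC correction Dnmt1 was at −0.23, and with block and correction at −0.30. Mbd2 was at −0.00053 with quantile normalization. Tet1, Tet2 and Mta1 have no value among genes averaging 5 TPM.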

Other observations

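Neil3, a glycosylase of dividing cells, was below the filter on low values and was looked at after its values were seen. Its levels were 2.48, 1.49, 0.610 and 0.702 TPM in ZT20 replicates 1 to 4 and 0.940, 0 and 0.244 TPM in ZT8 replicates 1 to 3. As for Uhrf1, the highest value was in ZT20 replicate 1 and the value in ZT8 replicate 2 was listed at 0, but the Neil3 ranges overlapped (limma adjusted p = 0.326 without the filter). Of 11 proliferation markers 9 were highest of the 7 samples in ZT20 replicate 1. In ZT8 replicate 2, where Uhrf1 and Neil3 were listed at 0, 3 of the 11 were lowest and 2 were highest.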
